A study of Mus musculus with 9 samples.

Results

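The potassium channel genes were followed through mouse muscle cell differentiation as the 91 genes whose symbol begins with Kcn followed by a family letter and a number, each represented by a probe set that names exactly 1 gene. For a gene with more than 1 such probe set, the probe set whose mean over the 9 arrays was highest stood for it. They were 91 of the 19938 genes with such a probe set. Of these, 88 code for a channel or a channel subunit, and 3 (Kcnd3os, Kcnmb4os1 and Kcnmb4os2) are antisense transcripts that the symbol alone brought in. The symbol root gives the class. Kcna, Kcnb, Kcnc, Kcnd, Kcnh and Kcnq are voltage-gated pores, Kcnf, Kcng, Kcns and Kcnv are electrically silent voltage-gated subunits, Kcnj are inward rectifiers, Kcnk are tandem-pore leak channels, Kcnma, Kcnn, Kcnt and Kcnu are calcium-activated channels and their relatives, and Kcnab, Kcne, Kcnip and Kcnmb are auxiliary subunits.

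The samples were wild type Balb/c primary cells from skeletal muscle, in 3 groups of 3 Affymetrix arrays: cycling myoblasts, myotubes after 2 days and myotubes after 5 days in differentiating medium. The protocol text that accompanies all 9 samples names a growth medium with 20% FBS and 4 ng/ml bFGF for every time point, while the sample names of the later groups give differentiating medium. Nothing in the labels tells whether separate cultures or animals lie behind the 3 arrays of a group, and p-values therefore measure only the spread between these arrays; that spread may be technical. These are whole cultures of dividing or fusing cells, in which fewer cells of a type and less RNA per cell cannot be told apart.

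Potassium channels let potassium leave the cell and so pull the membrane potential towards negative values. In myoblasts that leave the cell cycle, inward rectifier channels are known to hyperpolarize the membrane before fusion, which opens a path of calcium entry, calcineurin and the transcription factors Mef2 and myogenin. In adult muscle fibres, inward rectifiers and ATP-sensitive channels set the resting potential and tie it to the energy state of the cell, and voltage-gated channels end the action potential.

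Most of the 91 genes were at modest or low levels, and 7 passed the test in some comparison. Kcnj2 and Kcnn3 rose by day 2 and remained higher at day 5, Kcna7 rose by a smaller amount, Kcnma1 passed at day 5, Kcnk13 was higher at day 2 than at either other time, and Kcnn4 and Kcnf1 fell at both times. A gene passed when its limma adjusted p (Benjamini-Hochberg over all 16582 genes tested) was under 0.05 and its difference was at least 2-fold, both on the log2 values as deposited and after quantile normalization over all 9 arrays, called the common scale below. Both scales were required because the deposited values had been normalized time point by time point: array medians were 4.33 to 4.35 in cycling cells, 4.26 at day 2 and 3.98 to 3.99 at day 5.

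Of the 91 genes, 78 (85.7%, against 83.2% of all genes) lay above the 30th percentile of their array on at least 3 arrays and were tested. At day 2 relative to cycling cells, 4 of these 78 (5.13%) were higher, against 6.04% of all genes tested, and 2 (2.56%) were lower, against 8.41%. At day 5 relative to cycling cells, 4 (5.13%) were higher, against 4.44% of all genes, and 2 (2.56%) were lower, against 12.3%. At day 5 relative to day 2, 0 were higher, against 0.766% of all genes, and 1 (1.28%) was lower, against 3.67%. In the comparisons with cycling cells, the shares called higher were thus close to those of all genes and the shares called lower were below them. The potassium channel genes also lay lower on the arrays. Of the 91, 25.3% were above the array median on all 9 arrays, against 50.6% of all genes. A gene at a low level in cycling cells has little room to fall, and the part of this in the shares called lower was not tested. The 2 comparisons with cycling cells share the cycling arrays.

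**Figure D1:**
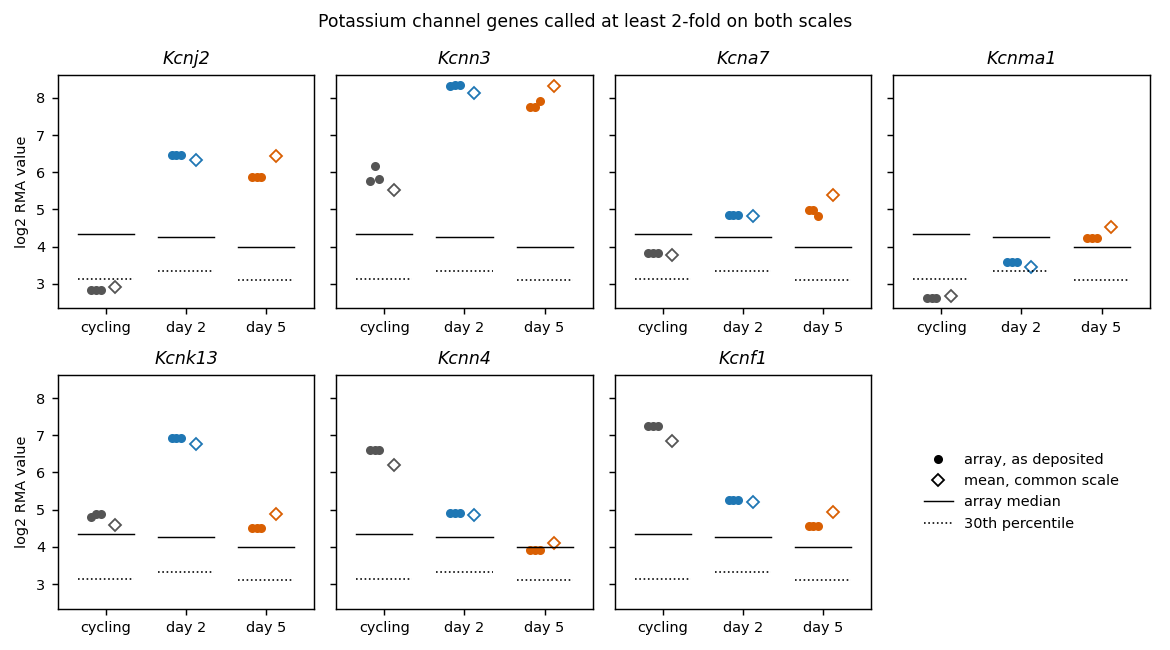
Log2 RMA values of the 7 genes that passed in any comparison, by time point. Filled points are the 3 arrays of a time point as deposited, open diamonds the mean on the common scale, solid lines the array median and dotted lines the 30th percentile, so that Kcnj2 and Kcnma1 can be seen below the dotted line in cycling cells and Kcnk13 high at day 2 (6.93).

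The adjusted p-values were small for nearly every gene and separated little. In a moderated F test over the 3 time points on the deposited values, limma called 77 of the 78 genes at an adjusted p under 0.05, against 98.4% of all genes tested. The exception was Kcnmb4os1 (limma adjusted p = 0.123). Any 2 arrays of a time point held exactly equal values for 51.4% to 67.8% of the 35556 probe sets, while the unequal ones differed by a median of 0.106 to 0.155 on the log2 scale. The share of all genes with equal values on all 3 arrays of a time point is not given. Among the 91 potassium channel genes, 68 had the same value on all 3 cycling arrays, 77 on all 3 day 2 arrays and 69 on all 3 day 5 arrays. Standard errors computed from such values are close to 0, so the size of a difference and its place relative to the array median carry more of what follows than its p. Between 0.419% and 2.5% of probe sets differed by 2-fold or more between 2 arrays of the same time point.

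Among the inward rectifiers, Kcnj2, the classical strong inward rectifier of muscle and heart, gave the largest difference of the 78. Its deposited log2 value was 2.84 on each cycling array, 6.47 on each day 2 array, and 5.87 on each day 5 array. The 3 groups did not overlap, and all cycling arrays lay below the 30th percentile of 3.13 to 3.14. The difference at day 2 was 3.63 in the deposited values and 3.44 on the common scale (SE 0.0085, n = 3 per group). At day 5 it was 3.03 in the deposited values and 3.53 on the common scale, with limma adjusted p = 9.67e-15 on that scale. From day 2 to day 5 the sign depended on the scale, with -0.60 in the deposited values and 0.09 on the common scale. The cycling value of 2.84 was the most common value of those arrays, held by 562 to 571 probe sets on each, and the table holds no background measure, so the size of the rise from that level is not known exactly.

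The other inward rectifiers that are known in muscle did not pass on both scales. Kcnj11, the pore of the ATP-sensitive channel of muscle, had deposited means of 4.87 in cycling cells, 5.24 at day 2 and 5.81 at day 5, above the array median on all 9 arrays. Its day 5 difference from cycling cells was 0.94 in the deposited values and 1.76 on the common scale, just short of 2-fold on the first. Kcnj12, another strong inward rectifier, had means of 4.57, 5.23 and 5.17, with a day 5 difference of 0.60 as deposited and 1.28 on the common scale. Both were therefore at least 2-fold higher at day 5 on the common scale alone. Kcnj8, the other ATP-sensitive pore, had means of 4.02, 3.80 and 4.06 and differences from cycling cells between -0.24 and 0.38 over both scales and times. Kcnj14, singled out after its values were seen because it lay closest to the threshold from outside, differed at day 2 by 0.97 as deposited. Its common-scale difference there rounds to 1.00 and lay below the threshold, and its cycling arrays gave 4.21, 3.80 and 3.80, so 1 array lay apart. Of the 15 inward rectifiers, Kcnj1, Kcnj6 and Kcnj16 were low at all times.

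Abcc9, a regulatory subunit that joins Kcnj11 or Kcnj8 in the ATP-sensitive channel, rose with a deposited mean of 4.26 in cycling cells, 7.47 at day 2 and 6.38 at day 5. Relative to cycling cells, the deposited and common-scale differences were 3.21 and 3.18 at day 2 and 2.12 and 2.83 at day 5. Abcc8, the regulatory subunit of pancreatic beta cells, did not pass, with means of 3.99, 4.69 and 4.56. Abcc9 is also a pericyte marker. Of the other markers of smooth muscle and pericytes, Rgs5 fell from 6.65 to 2.64 and 2.66, and Myh11 had means of 4.30, 4.00 and 3.86. Cnn1 had means of 3.15, 3.80 and 4.02, highest in myotubes like Abcc9, with a day 5 difference from cycling cells of 0.88 as deposited and 1.06 on the common scale that was not called. The summed deposited level of these 3 markers without Abcc9 was 14.1 in cycling cells, 10.4 at day 2 and 10.5 at day 5, and Rgs5 alone fell by 4.02 at day 2. With Abcc9 in the sum it ran from 18.3 to 18.4 in cycling cells and was 17.9 at day 2 and 16.9 at day 5. The part of these cells in the result was not tested.

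Among the channels opened by calcium, Kcnn3, Kcnn4 and Kcnma1 passed and Kcnn1 did not, while Kcnn2 was not tested. Kcnn3 and Kcnma1 were higher in myotubes and Kcnn4 lower. The related Kcnt1 and Kcnu1 were tested and not called. Kcnn3 codes for a small-conductance channel that responds to submicromolar calcium and is known from developing and denervated muscle. Its deposited values were 5.77, 6.17 and 5.82 in cycling cells, 8.32, 8.34 and 8.34 at day 2, and 7.76, 7.74 and 7.91 at day 5. All 9 arrays lay above their median, and the cycling arrays were below all others. Kcnn3 was 5.33-fold higher at day 2 as deposited and 6.19-fold higher on the common scale (log2 differences 2.41 ± 0.11 and 2.63 ± 0.10, SE, n = 3 per group, limma adjusted p = 5.27e-07 and 5.85e-08). At day 5 it was 3.70-fold higher as deposited and 6.94-fold higher on the common scale. The day 5 minus day 2 difference was -0.53 in the deposited values and 0.16 on the common scale, where limma gave an adjusted p of 0.158, so no further change was called.

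Kcnn4, the intermediate-conductance channel known from dividing fibroblasts, lymphocytes and red cells, fell at each time relative to cycling cells. Its deposited value was 6.62 on every cycling array, 4.90 on every day 2 array and 3.91 on every day 5 array. The groups did not overlap, and the day 5 arrays lay below their median, at a value shared by 397 to 405 probe sets. Kcnn4 was 3.28-fold lower at day 2 as deposited and 2.51-fold lower on the common scale (log2 differences -1.71 and -1.33, common-scale SE 0.0097). At day 5 it was 6.54-fold lower as deposited and 4.20-fold lower on the common scale, where limma gave an adjusted p of 1.69e-13. Between day 2 and day 5 the difference was -0.99 in the deposited values and -0.75 on the common scale, short of 2-fold on both. Markers of fibroblasts, in which Kcnn4 is known, moved in part with it: Col3a1 fell from 8.92 to 6.06 and 4.77, while Dcn and Lum had means of at most 2.89 at every time. Thy1 had means of 5.03, 4.69 and 4.68, and Pdgfra of 4.29, 3.67 and 4.36. The summed deposited level of the 5 fibroblast markers was 22.8 in cycling cells, 19.3 at day 2 and 18.5 to 18.9 at day 5. At day 5 relative to cycling cells, Col3a1 differed by -4.15 as deposited and -3.41 on the common scale. Thy1 differed there by -0.35 and 0.36, and Pdgfra by 0.07 and 0.56, so their direction or size depended on the scale. The part of fibroblasts in the Kcnn4 result was not tested.

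Kcnma1, the pore of the large-conductance channel opened by both voltage and calcium, had a deposited value of 2.62 on every cycling array, 3.57 on every day 2 array and 4.23 on every day 5 array. It lay below the 30th percentile in cycling cells, below the median at day 2 and above the median at day 5. The day 5 difference passed at 1.61 as deposited and 1.85 on the common scale, while the day 2 difference of 0.95 and 0.77 stayed below 2-fold. Another probe set that names Kcnma1 read 2.39 in cycling cells and 2.92 at day 2 on every array, and 2.66, 2.66 and 2.21 at day 5. That probe set was at or below the 30th percentile on all 9 arrays, and its day 5 difference was 0.12 in the deposited values and 0.14 on the common scale, so the 2 probe sets disagree on the rise. The remaining members of the class known in muscle were Kcnn1, with means of 4.71, 4.41 and 4.69, and Kcnn2, which was low on all 9 arrays with means of 2.54, 3.26 and 3.08. Neither Kcnmb1, the smooth muscle partner of Kcnma1 (2.88, 3.18 and 2.70, low throughout and not tested), nor Kcnmb3, another of its partners (4.85, 5.23 and 4.83), was called.

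Among the voltage-gated pores, Kcna7, a Shaker-type channel known from skeletal muscle and heart, was the 1 gene of 23 tested that passed. Its deposited values were 3.83 on every cycling array, 4.85 on every day 2 array, and 4.98, 4.98 and 4.82 at day 5. The cycling arrays lay below the array median and the later arrays above it. These values were coarse: each was held by 139 to 176 probe sets on cycling arrays, 128 to 137 at day 2 and up to 130 at day 5. The difference was 1.02 on both scales at day 2, and 1.10 as deposited and 1.61 on the common scale at day 5, with limma adjusted p = 1.55e-07 and 7.29e-09 at day 5. The day 2 call rested on a difference barely over 2-fold: when any 1 cycling array was left out, the common-scale difference fell to as little as 0.99 and the call was lost. Kcna7 passed at day 5 whichever array was left out.

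The other voltage-gated genes known in muscle did not pass. Kcnc4, a fast-inactivating channel of muscle, had means of 4.67, 4.75 and 5.51, with a day 5 difference from cycling cells of 0.84 as deposited and 1.60 on the common scale. Kcnc1, a fast delayed rectifier, had means of 4.55, 5.35 and 4.56, with a day 2 difference of 0.81 and 0.95, so its highest value was at day 2. Kcnh1, the ether-a-go-go channel that precedes inward rectification in human myoblasts, had means of 4.20, 4.29 and 3.75 and a day 5 difference of -0.45 as deposited and -0.16 on the common scale. Kcnq5, a slow M-type channel found in muscle, stayed above the median on all 9 arrays, with means of 4.91, 4.87 and 5.04. Kcna5, a delayed rectifier, had means of 2.88, 3.26 and 3.17. The transient channels Kcnd2 (3.06, 3.57 and 3.62) and Kcnd3 (3.56, 3.69 and 3.58) lay below the array median at all times. Kcna2 (4.61, 4.62 and 4.87), Kcna3 (4.88, 4.62 and 4.67) and Kcnh4 (4.57, 4.82 and 4.50) were above the median on all 9 arrays with no call.

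The electrically silent subunits form no channel alone and change the gating of other voltage-gated pores. Kcnf1 was the 1 of 9 tested that passed, and it was lower in the myotubes at both times. Its deposited values were 7.24, 7.26 and 7.24 in cycling cells, 5.27 on every day 2 array and 4.56 on every day 5 array, above the array median on all 9. The groups did not overlap. Kcnf1 was 3.95-fold lower at day 2 as deposited and 3.09-fold lower on the common scale (log2 differences -1.98 and -1.63). At day 5 it was 6.43-fold lower as deposited and 3.72-fold lower on the common scale (log2 differences -2.68 and -1.89, limma adjusted p = 2.09e-16 and 1.77e-13). The step from day 2 to day 5 was -0.70 in the deposited values and -0.27 on the common scale and was not called. Of the 4 glial and neuronal markers measured, Stmn2 was lower at day 5 than in cycling cells, by a log2 difference of -2.68 as deposited and -2.15 on the common scale. At day 2 its difference from cycling cells was -1.10 and -0.73, not called, and from day 2 to day 5 it fell by 1.58 and 1.43, so its mean was lower at each later time, like that of Kcnf1. Snap25 and Syt1 were below the median on all 9 arrays, and Sox10 had means of 4.23, 4.37 and 4.14. The summed deposited level of the 4 was 16.3, 16.6 and 14.4. The part of such cells in the Kcnf1 result was not tested. Kcng1 (5.15, 4.75 and 4.68), Kcng2 (5.40, 5.39 and 5.31) and Kcns3 (4.87, 4.77 and 4.41) also stayed above the median on every array, with no call.

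The promoters of the 5 genes that passed in the same direction at both times are shown because the myogenic factors Myod1 and myogenin bind the E-box, CANNTG, and differ from other E-box factors in favouring CAGCTG. The sequences are those of RefSeq (GRCm38.p6) from 250 bases before to 50 bases after the annotated start, 5′ to 3′ on the strand of the gene, with every E-box in capitals. Kcnj2, Kcnn3 and Kcna7 were higher, and Kcnn4 and Kcnf1 lower. They lie at chr11:111065914-111066213 (plus strand, Kcnj2), chr3:89519914-89520213 (plus, Kcnn3), chr7:45405710-45406009 (plus, Kcna7), chr7:24370013-24370312 (plus, Kcnn4) and chr12:17176839-17177138 (minus, Kcnf1).
Kcnj2: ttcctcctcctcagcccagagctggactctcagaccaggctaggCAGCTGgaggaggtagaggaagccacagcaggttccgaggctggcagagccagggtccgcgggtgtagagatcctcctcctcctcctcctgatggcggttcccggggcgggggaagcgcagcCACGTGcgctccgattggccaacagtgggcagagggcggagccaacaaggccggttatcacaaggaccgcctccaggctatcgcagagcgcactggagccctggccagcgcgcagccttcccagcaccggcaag
Kcnn3: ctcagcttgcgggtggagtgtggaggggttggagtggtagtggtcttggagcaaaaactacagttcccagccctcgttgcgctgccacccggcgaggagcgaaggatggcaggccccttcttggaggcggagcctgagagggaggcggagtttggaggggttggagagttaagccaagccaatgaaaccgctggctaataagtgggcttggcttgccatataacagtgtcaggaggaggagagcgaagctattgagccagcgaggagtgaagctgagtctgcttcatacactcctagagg
Kcna7: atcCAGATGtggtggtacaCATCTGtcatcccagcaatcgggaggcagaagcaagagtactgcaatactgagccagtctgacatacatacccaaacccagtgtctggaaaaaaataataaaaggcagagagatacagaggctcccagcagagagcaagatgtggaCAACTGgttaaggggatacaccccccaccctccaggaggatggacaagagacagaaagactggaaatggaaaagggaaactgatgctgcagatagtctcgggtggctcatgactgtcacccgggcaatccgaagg
Kcnn4: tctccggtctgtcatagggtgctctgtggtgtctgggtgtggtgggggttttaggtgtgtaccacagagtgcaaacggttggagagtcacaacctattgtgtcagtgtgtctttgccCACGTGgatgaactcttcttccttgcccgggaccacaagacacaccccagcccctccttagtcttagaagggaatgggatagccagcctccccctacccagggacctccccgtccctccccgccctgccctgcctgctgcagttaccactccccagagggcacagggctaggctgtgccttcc
Kcnf1: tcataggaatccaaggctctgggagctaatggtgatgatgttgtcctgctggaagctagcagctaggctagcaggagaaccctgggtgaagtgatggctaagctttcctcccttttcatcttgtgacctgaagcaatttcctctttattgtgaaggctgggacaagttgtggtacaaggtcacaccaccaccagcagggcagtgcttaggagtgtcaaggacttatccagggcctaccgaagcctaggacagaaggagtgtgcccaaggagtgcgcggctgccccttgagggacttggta

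Kcnj2 held CAGCTG, whose first base lay at -206 from the start, and CACGTG at -84. Kcna7 held 3 E-boxes, CAGATG at -247, CATCTG at -231 and CAACTG at -85. Kcnn4, which fell, held CACGTG at -133. Kcnn3 and Kcnf1 held none, so genes in both directions had and lacked the motif. In this window, CANNTG was found in 72.3% of all 32851 RefSeq promoters and in 72.3% of the 94 promoters of the 69 potassium channel genes with an entry, and CAGCTG, which is 1 form of CANNTG, in 16.3% and 25.5%. The MEF2 site, known to be bound by Mef2 factors, was in 0.557% of all promoters, in 1 of the 94 and in none of the 7 called genes. Each of these motifs reads the same on both strands. A match is a string of letters in this window, and no binding was measured.

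Among the tandem-pore channels, which carry background leak currents, Kcnk13 was the 1 of 14 that passed. Kcnk13 codes for a halothane-inhibited leak channel known from microglia. Its deposited values were 4.80, 4.88 and 4.88 in cycling cells, 6.93 on every day 2 array and 4.50 on every day 5 array. The day 2 arrays were above all others, and all 9 lay above their median. Kcnk13 was 4.23-fold higher at day 2 than in cycling cells as deposited and 4.53-fold higher on the common scale (2.08 ± 0.020 and 2.18 ± 0.016 on the log2 scale, SE, n = 3 per group). From day 2 to day 5 it fell by 5.39-fold as deposited and 3.74-fold on the common scale (limma adjusted p = 1.71e-11 and 9.63e-12), and it was the 1 potassium channel gene that passed in this comparison. Day 5 and cycling cells differed by -0.35 as deposited and 0.28 on the common scale, so the order of these groups depended on the scale.

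Of the 5 macrophage markers, Itgam was higher at day 2, with deposited means of 2.73 in cycling cells, 4.69 at day 2 and 3.62 at day 5, a day 2 difference of 1.96 as deposited and 1.86 on the common scale. Csf1r was also highest at day 2 (2.95, 3.85 and 3.00) but below the array median throughout and not called, and so was Ptprc, which marks all leukocytes (2.92, 3.57 and 3.27). Cd14 (3.67, 3.35 and 3.41) and Cd68 (4.82, 3.99 and 3.81) had their highest means in cycling cells. The summed level of the 5 was 17.1 in cycling cells, 19.5 at day 2 and 17.1 at day 5. This sum of deposited values was highest at day 2, like Kcnk13. The summed deposited level of all 91 potassium channel genes was 350 to 352 in cycling cells, 369 to 370 at day 2 and 355 to 357 at day 5. Its fall after day 2 may depend on the scale. From day 2 to day 5, the median log2 difference of the 78 tested members was -0.11 in the deposited values and 0.17 on the common scale. For the 5 macrophage markers these medians were -0.30 and -0.07. Sums on the common scale are not given. The day 2 value of Itgam was held by 154 to 158 probe sets on each array. The part of macrophages in the Kcnk13 result was not tested.

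The other tandem-pore channels above the median on every array were Kcnk2, opened by stretch and lipids, the acid-sensitive Kcnk3, the mechanically gated Kcnk4, the alkaline-sensitive Kcnk5, and Kcnk12 and Kcnk15, whose own currents are small or unseen. Kcnk5 had a deposited value of 5.63 on every cycling array, 4.34 on every day 2 array and 5.13 on every day 5 array. Its day 2 difference was -1.29 in the deposited values and -0.96 on the common scale, so it was 2-fold lower on the first scale alone. Its day 5 minus day 2 difference was 0.79 and 1.35, past 2-fold on the common scale alone. Kcnk2 had means of 4.85, 4.41 and 5.01, with a day 5 minus day 2 difference of 0.61 as deposited and 1.15 on the common scale. Kcnk3 (4.85, 4.85 and 4.77), Kcnk4 (4.49, 4.38 and 4.36), Kcnk12 (4.71, 4.41 and 4.41) and Kcnk15 (4.66, 4.70 and 4.80) differed by less than 1 on both log2 scales in every comparison.

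**Figure D2:**
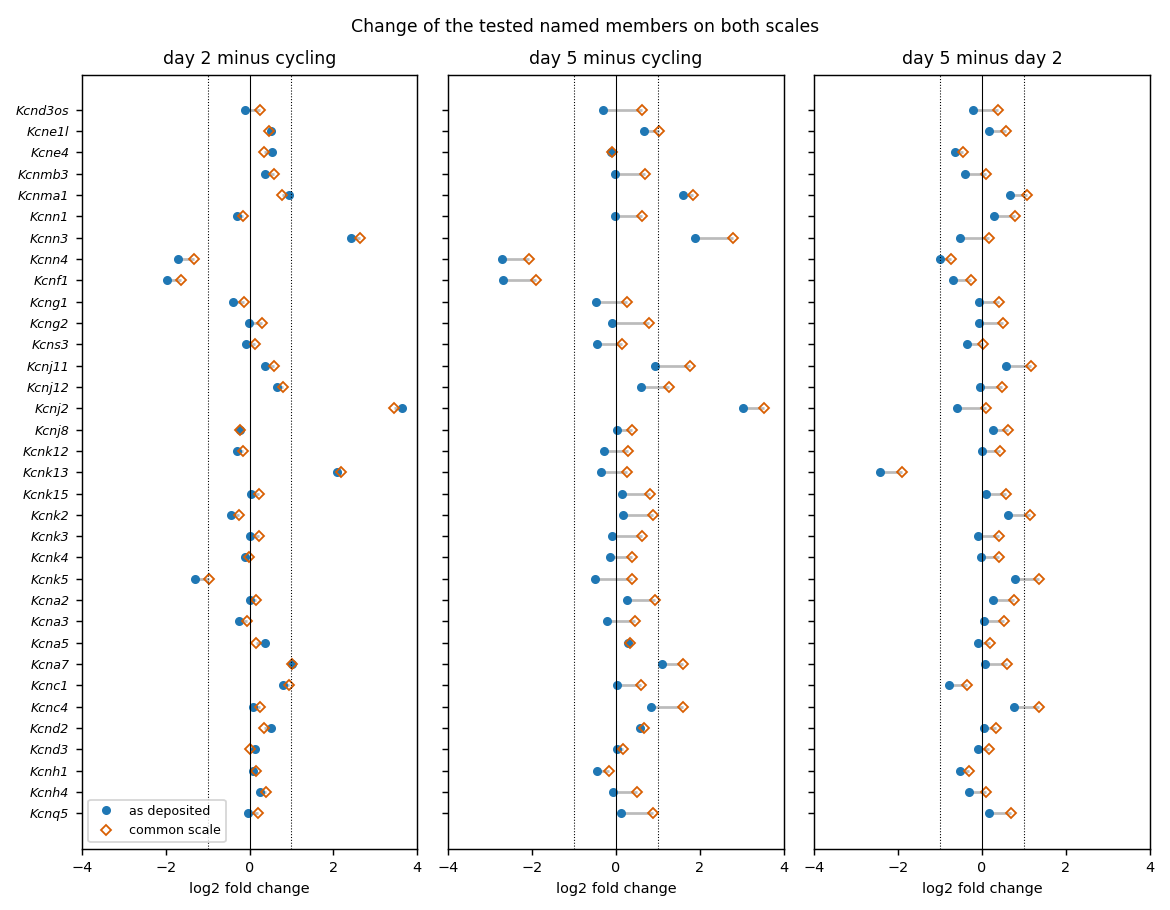
Log2 fold changes of the 34 tested genes named here, in the 3 comparisons; filled circles are the values as deposited, open diamonds those on the common scale, and dotted lines mark 2-fold. At day 5 the diamonds lie to the right of the circles for nearly all genes, as for Kcnj11 (0.94 and 1.76), while Kcnj2, Kcnn3, Kcnn4 and Kcnf1 stay past a dotted line on both.

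The auxiliary subunits gave no call among 11 tested of 16. Kcne1l had means of 3.67, 4.19 and 4.35 and a day 5 difference of 0.68 as deposited and 1.03 on the common scale. Kcne4, an inhibitory partner of voltage-gated pores, had means of 2.84, 3.38 and 2.74. Kcne3, the partner of Kcnc4 in muscle, had means of 2.84, 3.26 and 3.09 and did not pass the filter. The 3 antisense transcripts were not called either, and Kcnd3os, with means of 5.82, 5.71 and 5.50, lay above the median on every array.

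Levels were low for many members. Of the 91, 29 were at or below the 30th percentile on every cycling array, 18 at day 2 and 14 at day 5. The matching shares of all genes at each time are not given, so these counts are not read as a change in the family. On all 9 arrays, 11 genes (12.1%) were at or below the 30th percentile, against 16.2% of all 19938 genes. Their group means lay between 2.18 and 3.26, and the same 11 were low on the common scale. They were Kcna4, Kcne2, Kcnip1, Kcnip4, Kcnj1, Kcnj6, Kcnj16, Kcnmb1, Kcnn2, Kcns2 and Kcnt2, genes known mainly from heart, kidney, smooth muscle and nervous tissue. None of the 14 tandem-pore genes was among them, and 4 of the 16 auxiliary genes were. Kcnb2 and Kcne3 were not tested either, without being low on all 9 arrays.

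The share above the array median on all 9 arrays was 23 of 91 (25.3%), against 50.6% of all genes. By class these were 7 of 14 tandem-pore genes, 4 of 10 silent subunits, 6 of 25 voltage-gated pores, 2 of 8 calcium-activated channels and relatives, 2 of 15 inward rectifiers, 1 of 16 auxiliary subunits and 1 of 3 antisense transcripts. In contrast, 46 (50.5%) were at or below the median on all 9 arrays, against 35.7% of all genes. The 35 of these that were not low on all arrays included 33 that were tested, and 0 of them passed in any comparison. Values held under the median have limited room for a 2-fold difference. The matching share of all genes is not given, so this count is not read as a trait of the family. Of the 7 called genes, Kcnn3, Kcnk13 and Kcnf1 were above the median on all 9 arrays, and Kcnj2, Kcna7, Kcnma1 and Kcnn4 were below it at one or more times. A place on the array reflects the probes as well as the transcript, so it does not rank the genes by abundance.

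**Figure D3:**
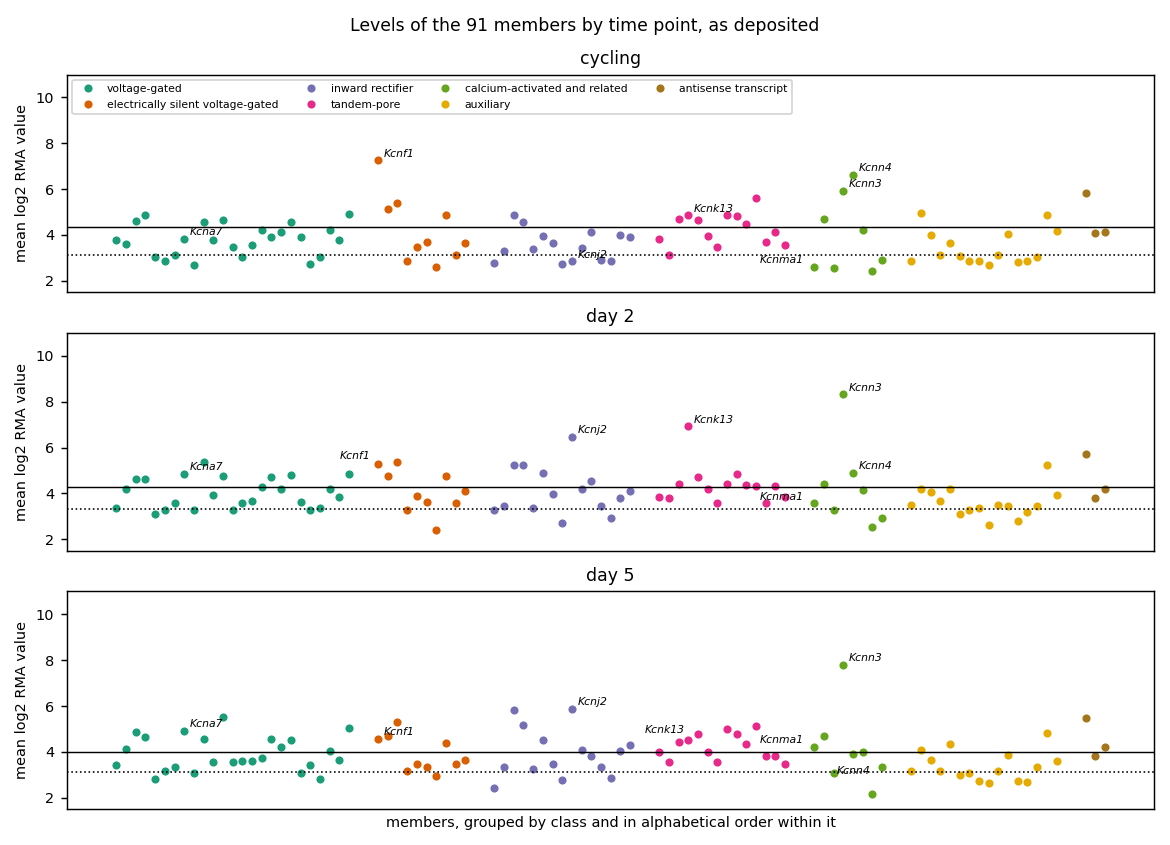
Mean deposited log2 RMA value of each of the 91 genes in cycling cells, at day 2 and at day 5, coloured by class. Solid lines are the array median and dotted lines the 30th percentile. Of the 91, 65 genes lay at or below the median on every cycling array, 60 at day 2 and 51 at day 5. The matching shares of all genes at each time are not given, so these counts are not read as a change in the family.

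Low values were also coarse. On each array, between 42.2% and 56.3% of probe sets held exactly the value of at least 9 others. Of the potassium channel genes, 62 to 74 did so on cycling arrays, 77 to 78 at day 2 and 71 to 76 at day 5. Kcne3, Kcne4, Kcng3, Kcnj2 and Kcnj6 all had the same mean of 2.84 in cycling cells, and Kcna10, Kcnab2, Kcne1l, Kcnj3, Kcnk16, Kcnmb4os2 and Kcnq1 all had 4.19 at day 2. In all, 36 of the 91 shared their cycling mean with another of them, 50 their day 2 mean and 26 their day 5 mean. Differences between genes at such values carry no order.

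**Figure D4:**
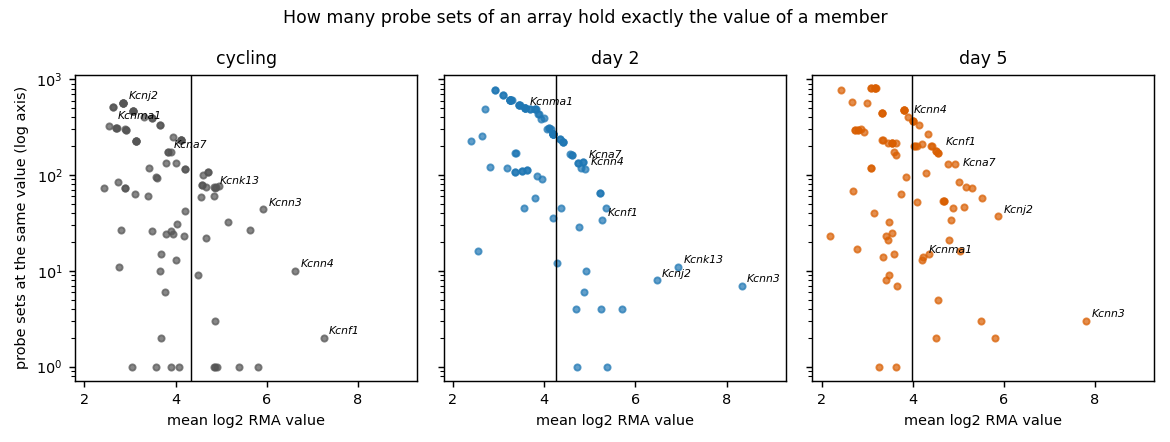
Number of probe sets on an array that hold exactly the value of a potassium channel gene (log axis, the highest of the 3 arrays) against the gene's mean deposited log2 RMA value, with the array median as a vertical line. Values shared by the most probe sets lie mainly left of the line, as that of Kcnj2 does in cycling cells (571), and Kcnn3 lies at the lower right at days 2 and 5. Kcnk13 is unlabelled at day 5, where its point falls beside that of Kcnf1.

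Differences of any size passing an adjusted p under 0.05 in limma on both scales were found at day 2 for 42 genes higher (53.8%, all genes 42.8%) and 17 lower (21.8%, all genes 37.4%). At day 5 relative to cycling cells these were 37 (47.4%, all genes 29.7%) and 15 (19.2%, all genes 38.1%). At day 5 relative to day 2 they were 23 (29.5%, all genes 16.2%) and 20 (25.6%, all genes 40.6%). The median log2 difference of the 78 at day 2 was 0.14 as deposited (all genes -0.01) and 0.19 on the common scale (all genes 0.09). At day 5 relative to cycling cells it was 0.02 as deposited (all genes -0.37) and 0.36 on the common scale (all genes 0.17). These shifts are small beside 2-fold. The sign of the difference differed between the scales for 7 of the 78 genes at day 2 (8.97%, all genes 12.4%), 21 at day 5 (26.9%, all genes 27.2%) and 29 between day 2 and day 5 (37.2%, all genes 35.7%).

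Outside the family, 50 genes that carry potassium or act in the path after hyperpolarization were counted from a list, of which 44 were tested. The list was chosen with earlier results of these data known, so its shares describe the listed genes and do not test the path. At day 2, 10 were higher (22.7%, all genes 6.04%) and 0 lower (all genes 8.41%). At day 5 relative to cycling cells, 6 were higher (13.6%, all genes 4.44%) and 0 lower (all genes 12.3%). Between day 2 and day 5, 0 were higher (all genes 0.766%) and 1 lower (2.27%, all genes 3.67%). The sodium pump, which restores potassium inside the cell, was represented by its beta and regulatory subunits, and 3 of its 6 tested genes rose at both times, against 6.04% of all genes called higher at day 2 and 4.44% at day 5. At day 5, Atp1b1 was higher by 2.03 as deposited and 2.91 on the common scale, and Atp1b2 by 1.14 and 1.77. The muscle regulator Fxyd1 was higher by 2.24 and 2.35 at day 2, and it passed at day 5 as well. The other 3 were not called at either time. Atp1b3, with the highest cycling mean of the 6 (10.84), differed at day 5 by -1.08 as deposited and -0.37 on the common scale. Fxyd5 differed there by -1.34 and -0.82, and Atp1b4 by 0.29 and 0.34. Slc12a2, which carries sodium, potassium and chloride into the cell, rose by 2.15 and 2.39 at day 2, and at day 5 it differed by 0.98 as deposited and 1.86 on the common scale.

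In the path of calcium entry and calcineurin, 5 of 17 genes were higher at day 2 (29.4%, all genes 6.04%) and 2 at day 5 (11.8%, all genes 4.44%). Stim1, the calcium sensor of the reticulum, rose by 1.60 and 1.84 at day 2 and by 1.91 and 2.83 at day 5. Mef2c rose by 3.60 and 3.89 at day 2 and by 3.32 and 4.04 at day 5. Myog, Mef2d and Nfatc2 passed at day 2, by 1.87, 1.14 and 1.06 as deposited. Myog is also among the skeletal muscle markers used below, and these genes too were listed with earlier results of these data known. The other 12 genes of the path were not called at day 2 and went in both directions. Of the calcineurin subunits, Ppp3ca differed there by -0.61 and -0.49, Ppp3cb by -0.35 and -0.18, and Ppp3r1 by 0.45 and 0.60. Of the calcium entry genes, Trpc1 differed by -0.82 and -0.59, Orai1 by 0.60 and 0.87, and Trpc4 by 0.45 and 0.36. The T-type calcium channels Cacna1g, Cacna1h and Cacna1i, which are known to open at the hyperpolarized potential of fusing myoblasts, were below the array median at all times and were not called. Dpp6, a partner of Kcnd pores, was the gene that was lower at day 5 than at day 2, with deposited means of 5.17, 5.17 and 3.86.

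In a check of the labelled cell type, all 9 skeletal muscle markers were above the median on every array, and the 4 endothelial markers were below it on every array. Ckm, the creatine kinase of muscle, rose from a mean of 6.19 to 11.01 and 11.34, and Myf5, a factor of the undifferentiated lineage, fell from 9.14 to 7.59 and 6.75. Of the 9, 6 were called higher and 1 lower at day 2 (all genes 6.04% and 8.41%). At day 5 relative to cycling cells, 5 were higher and 2 lower (all genes 4.44% and 12.3%). Chrna1, Acta1, Myog, Tnnt3 and Myh3 already had means of 11.32, 10.92, 9.15, 8.81 and 8.50 in cycling cells, and Chrna1 was not called. Of the 4 adipocyte markers, 3 were tested and none was called, while Adipoq did not pass the filter. Plin1 lay above the median on all 9 arrays, with means of 4.46, 4.41 and 4.26. Adipoq, Lep and Cidec lay at or below it on all 9.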

How the data were processed

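Total RNA of 9 samples was measured on Affymetrix arrays. The deposited values are log2 RMA values per probe set, which the authors normalized per replicate set, per the series' design text. Array quantiles agreed within a time point and differed between time points. The RMA version, genome build and annotation are not given in the sources used here. Probe sets were named through GEO's platform annotation. All 91 members matched the RefSeq gene table by Entrez identifier, and 0 symbols changed.

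Genes were kept when above the 30th percentile of their array on at least 3 arrays. limma 3.58.1 in R 4.3.3 (lmFit, contrasts.fit, eBayes, a mean per time point, all 9 arrays) was fitted to the deposited values and again after normalizeQuantiles over all 9 arrays. The code was tested on simulated data. A call required an adjusted p (Benjamini-Hochberg over 16582 genes) under 0.05 and a 2-fold difference on both scales.

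Genes given with values were all called members, all members above the median on all 9 arrays, and a list of members known in muscle. The members and lists were chosen with earlier results of these data known. Alternatives covered the scale, the filter, the probe set, the variance model, the fold threshold, a replicate block and leaving out each array. The number of arrays limits the precision.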

Additional observations from a re-analysis of the deposited data

How the results depend on the processing

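With the replicate number as a block in the fit, the counts of potassium channel genes stayed at 4 higher and 2 lower at day 2, 4 higher and 2 lower at day 5, and 0 higher and 1 lower from day 2 to day 5. The labels give the time points the same replicate numbers. Arrays of the same number did not deviate together (correlations of -0.0038 to 0.0405 over 9 pairs, against -0.058 to 0.041 over 18 pairs of different number). Because most probe sets held exactly equal values on any 2 arrays of a time point, these correlations cannot show whether the numbers pair the arrays. Leaving out each array in turn gave 3 to 4 genes higher at day 2, with Kcna7 lost without any one cycling array and Kcnj14 gained without cycling replicate 1, and left the other counts at 2 lower at day 2, 4 higher and 2 lower at day 5, and 0 higher and 1 lower from day 2 to day 5.

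The fold threshold and the scale moved the counts most. The shares of all genes at these settings are not given, so the counts are not read as results about the family. The median day 5 difference of all genes from cycling cells was itself -0.37 as deposited and 0.17 on the common scale. At a threshold of 1.5-fold, 10 genes were higher and 4 lower at day 2, 11 were higher at day 5, and 4 were higher and 2 lower from day 2 to day 5. On the common scale alone, 9 genes were higher at day 5, with Kcnc4, Kcne1l, Kcnh2, Kcnj11 and Kcnj12 added, and 5 were higher from day 2 to day 5, namely Kcnc4, Kcnj11, Kcnk2, Kcnk5 and Kcnma1 (Kcnh2 and Kcnj14 are named because of these values). With low defined by the 50th percentile, 46 genes were low on all 9 arrays in place of 11, by the construction of the threshold. The remaining alternatives (deposited values alone, median centring, no filter or a filter at the 50th percentile, the probe set with the highest median, a trended and robust variance) kept every count of calls within 1.5 times. No called difference of a named gene reversed its direction under any alternative run. The low side of Kcnj2 and Kcnma1 in cycling cells, and the absence of a background measure, limit the precision of their folds.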
